A study of Mus musculus with 59 samples.

Results

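Iron and heme genes of the mouse were followed across liver, kidney, visceral white adipose tissue (VsWAT) and plasma, through 8 genes taken by symbol out of the 55273 features in the count tables. The 8 were Hamp and Hamp2, Slc40a1, Tfrc, Fth1 and Ftl1, Alas1, and Hmox1. They had been chosen by their measured response to diet in liver and VsWAT and their measured change between pull-down and input. For those contrasts the values of the 8 genes are therefore given as a description, without a test. Tests of the 8 were kept to the diet contrast in kidney and plasma and to differences between tissues.

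Hepcidin, the peptide made from Hamp by hepatocytes, is the hormone that limits the entry of iron into blood. It binds ferroportin, the iron exporter encoded by Slc40a1, and causes its degradation, so that iron stays inside macrophages, enterocytes and hepatocytes. Hamp2 is a second hepcidin gene of the mouse that lies next to Hamp. The transferrin receptor (Tfrc) brings transferrin-bound iron into cells, and ferritin, built of heavy (Fth1) and light (Ftl1) chains, stores it. Alas1 encodes the first and rate-limiting enzyme of heme synthesis outside red cell precursors, and Hmox1 encodes the inducible heme oxygenase, which opens the heme ring and releases its iron. In hepatocytes both heme synthesis for cytochromes P450 and hepcidin output are large.

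Male mice aged 12 weeks had been kept for 2 weeks on a high-fat or a low-fat diet. Every group shared 1 strain, FVB.129P2 in the labels, with 3 alleles in both diets: the Cyp3a13tm1Ahs knockout, the deletion Del(5Cyp3a57-Cyp3a59)1Ahs, which spans the cluster between those genes, and the transgene Tg(APOE-CYP3A4)A1Ahs, which puts the human drug-metabolizing enzyme CYP3A4 under APOE sequences. RNA of these animals had been tagged, and libraries were made from RNA recovered through the tag (pull-down) and from RNA before recovery (input). The labels do not say which cells carried the tag or whether each library of a group is a different mouse, and the p-values below accordingly measure the spread between libraries. The pull-down and input groups were liver mRNA (3 libraries per diet and fraction), kidney mRNA (3 high-fat and 2 low-fat per fraction), liver small RNA (3 high-fat and 3 low-fat inputs, with 3 high-fat and 2 low-fat pull-downs), VsWAT small RNA (3 per diet and fraction) and plasma small RNA (2 per diet and fraction). A sixth set held VsWAT total RNA (3 libraries per diet, with no pull-down).

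Library totals ranged from 3389320 to 4426392 counts in liver mRNA pull-down and from 3033702 to 4942158 in input, from 3741335 to 13713002 in kidney pull-down and from 7970076 to 19645443 in input, and from 573697 to 3338652 in liver small RNA pull-down and from 875970 to 3608065 in input. VsWAT small RNA held 1867345 to 2580104 counts in pull-down and 881578 to 2220123 in input, VsWAT total RNA 2556411 to 7940309, and plasma 221875 to 646964 in pull-down and 327144 to 828030 in input. Levels below are counts scaled to the library total (CPM, the usual per-million unit). They compare a gene between libraries, not genes with each other, since counts also follow transcript length. Among the summed marker lists, that of the labelled tissue was highest in each: hepatocyte markers held 62150 to 91950 CPM in liver mRNA input, proximal tubule markers 65910 to 81770 CPM in kidney input, and adipocyte markers 6954 to 9059 CPM in VsWAT small RNA input. VsWAT small RNA inputs also held hepatocyte markers, at 332 to 2072 CPM. Their exocrine pancreas markers summed to 29.5 to 1339 CPM in high-fat and 38.3 to 231 CPM in low-fat libraries (median log2 diet difference 2.29, 0 of 7 called). In plasma input the erythroid markers held 21220 to 44050 CPM. Cyp3a13, labelled as knocked out, still had 5.60 to 146 CPM in liver mRNA input, and where its reads lay relative to the deleted part was not checked. The first low-fat liver mRNA input stood apart from the other low-fat inputs in its counts across genes (chi-square per gene of 55.0 and 51.7 against them, where replicates 2 and 3 differed by 1.12), and results whose direction turned or whose value moved by over 1.5 times without it are given both ways. Without it the low-fat inputs are replicates 2 and 3 alone, which differ by little more than counting error, as do high-fat inputs 1 and 3 (1.17). The SE, adjusted p and counts of genes called without that library may therefore understate the spread between mice. Fits with all libraries also count these pairs as separate, and may understate it too. The same holds for high-fat 1 and 2 of VsWAT small RNA input (1.44). The first high-fat kidney input stood apart likewise (81.9 and 83.1, where the other high-fat inputs differed by 5.68).

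The sequences just upstream of both hepcidin genes are shown because the genes are close copies whose levels by diet differed. Both lie on the minus strand of chromosome 7 in GRCm38.p6, Hamp at chr7:30942368-30944029 and Hamp2 at chr7:30922372-30924181. The 250 bases before each annotated start, from RefSeq, are chr7:30944030-30944279 for Hamp and chr7:30924182-30924431 for Hamp2. They are printed 5′ to 3′ on the gene's strand, with capitals for the bone morphogenetic protein (BMP) response element GGCGCC, or the bases aligned with it, and for the STAT site TTCNNNGAA.
Hamp: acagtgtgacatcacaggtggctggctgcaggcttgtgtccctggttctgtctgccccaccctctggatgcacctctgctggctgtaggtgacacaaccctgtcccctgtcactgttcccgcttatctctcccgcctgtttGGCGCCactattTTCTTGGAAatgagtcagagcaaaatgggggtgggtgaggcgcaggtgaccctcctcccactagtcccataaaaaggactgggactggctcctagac
Hamp2: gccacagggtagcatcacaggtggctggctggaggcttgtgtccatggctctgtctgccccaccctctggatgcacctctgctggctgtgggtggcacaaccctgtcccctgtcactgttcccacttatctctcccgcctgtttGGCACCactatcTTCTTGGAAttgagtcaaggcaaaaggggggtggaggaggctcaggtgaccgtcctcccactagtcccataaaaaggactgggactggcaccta
An alignment without gaps paired 247 bases, of which 227 were identical (91.9%). GGCGCC started at -109 in Hamp. The aligned bases of Hamp2 differ from it by G4A, counted from 1 at the 5′ end of the motif with the Hamp base first, and GGCGCC was not in this window of Hamp2. TTCNNNGAA was in both, as TTCTTGGAA, at -97 in Hamp and at -94 in Hamp2. Both motifs read the same on either strand and did not overlap. Over the 250 bases upstream of 32851 annotated starts, 9.59% held GGCGCC and 7.02% held TTCNNNGAA. Of the 6 members with a promoter in the table, Tfrc also held GGCGCC, at -89, and Alas1 held TTCNNNGAA as TTCGTAGAA, at -171. A match is a description of letters and shows no binding.

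Hamp2 was lower on the high-fat diet in all 4 liver data types, whereas Hamp differed in no common direction. In liver mRNA input Hamp2 had 7.04, 5.59 and 4.45 CPM in high-fat libraries, against 54.4, 20.4 and 20.6 CPM in low-fat libraries. In liver mRNA pull-down it had 1.13, 1.77 and 4.11 CPM in high-fat libraries, against 11.5, 17.2 and 13.2 CPM in low-fat libraries. In neither fraction did the diets overlap, and the first low-fat input was far above the other low-fat inputs. Among liver small RNA inputs Hamp2 had 10.2, 18.4 and 27.0 CPM in high-fat libraries, against 150, 170 and 348 CPM in low-fat libraries. The liver small RNA pull-downs had 22.2, 25.5 and 36.6 CPM of Hamp2 in high-fat libraries, against 154 and 308 CPM in the low-fat libraries, replicates 1 and 3. Every low-fat small RNA library was above every high-fat one. The log2 differences of high-fat minus low-fat, with their standard errors (SE), were -2.53 ± 0.49 in liver mRNA input, -2.75 ± 0.59 in its pull-down, -3.38 ± 0.48 in small RNA input and -2.93 ± 0.49 in its pull-down. Without the first low-fat mRNA input the first of these was -1.69 ± 0.28. Without the third low-fat small RNA pull-down the last was -2.26.

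Hamp, the copy with the known hormone activity, had 749, 700 and 724 CPM in high-fat liver mRNA inputs, against 1696, 692 and 728 CPM in low-fat inputs. The diets overlapped, and the first low-fat input was far above the rest. The log2 difference was -0.58 ± 0.33 (SE), and 0.21 ± 0.10 without that library, so its direction rests on it. Among liver mRNA pull-downs Hamp had 907, 869 and 836 CPM in high-fat libraries, against 1120, 1369 and 1021 CPM in low-fat libraries, with no overlap and a log2 difference of -0.56 ± 0.33. Small RNA inputs of liver had 375, 474 and 335 CPM of Hamp in high-fat libraries, against 284, 558 and 195 CPM in low-fat libraries, which overlapped. Small RNA pull-downs of liver had 1311, 804 and 1293 CPM of Hamp in high-fat libraries, against 672 and 359 CPM in low-fat libraries. Those did not overlap, with Hamp higher on the high-fat diet, the opposite of the mRNA pull-down. The log2 differences in small RNA were 0.35 ± 0.33 in input and 1.33 ± 0.39 in pull-down. The input value ran between 0.09 and 0.74 when each input was left out, and the pull-down value reached 1.78 without the first low-fat pull-down.

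**Figure D1:**
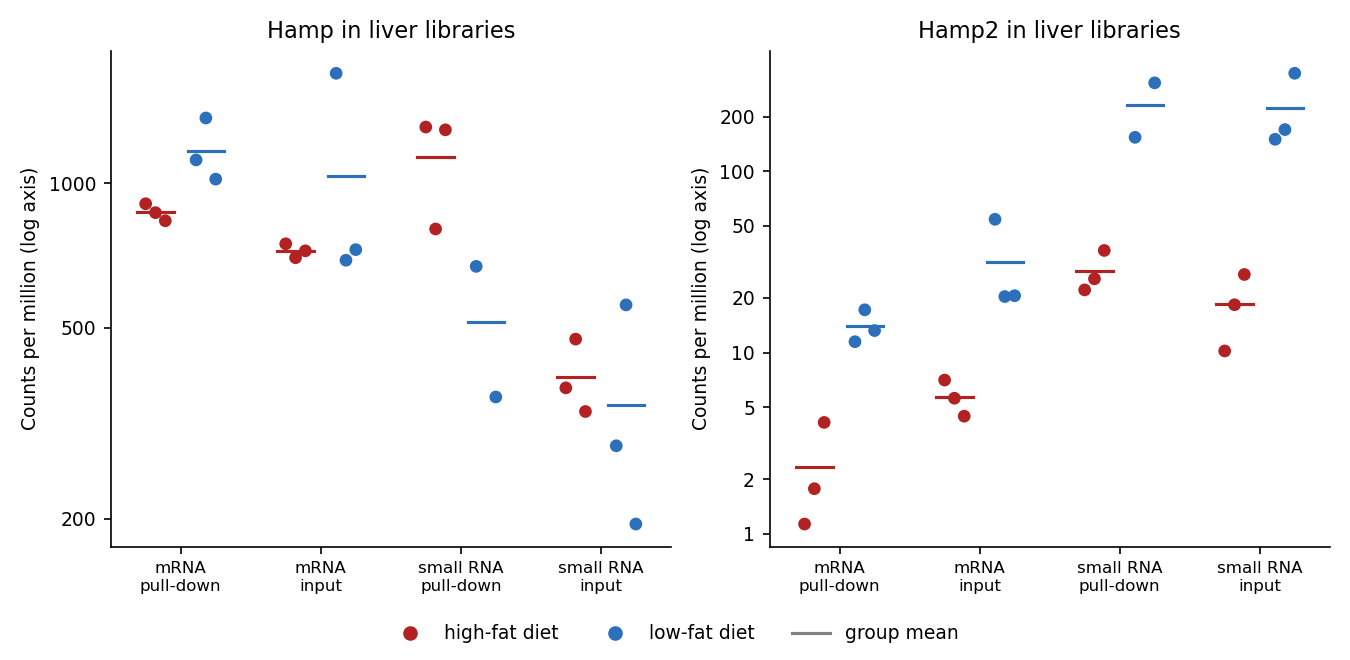
Hamp and Hamp2 in each liver library, in CPM on a log axis, by fraction and diet; points are libraries and bars are group means. Hamp2 sits lower in every high-fat group, without overlap, while Hamp overlaps between diets in both inputs.

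The share of Hamp2 among the summed counts of both hepcidin genes gives the contrast within each library. In liver mRNA pull-down the share was 0.124% to 0.489% in high-fat libraries, against 1.01% to 1.28% in low-fat libraries, and in liver mRNA input it was 0.611% to 0.932%, against 2.75% to 3.11%. Small RNA pull-downs of liver had 1.66% to 3.08% in high-fat libraries, against 18.7% to 46.2% in low-fat libraries. In small RNA input it was 2.65% to 7.45% in high-fat libraries, against 23.4% to 64.1% in low-fat libraries. The nearest libraries of the small RNA inputs were high-fat 3, with 7.45% of 416 counts (95% Wilson interval 5.30% to 10.4%), and low-fat 2, with 23.4% of 2629 counts (21.8% to 25%). These intervals, like every interval and floor below, cover counting error only. The first low-fat mRNA input, which stood apart in the level of both genes, had a share of 3.11%, close to the 2.86% and 2.75% of the other low-fat inputs. How reads that match both copies were assigned is not given in the sources used here, so the division between the genes is uncertain. With the counts of both genes added before the fit, the log2 diet difference was -0.61 ± 0.33 in liver mRNA input, -0.58 ± 0.33 in its pull-down, -0.31 ± 0.27 in small RNA input and 0.81 ± 0.30 in its pull-down. Without the first low-fat mRNA input the first of these was 0.18 ± 0.10, so its direction rests on that library.

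Hmox1, the heme-degrading enzyme, was higher on the high-fat diet in liver and in VsWAT. In liver mRNA input it had 9.98, 13.2 and 14.8 CPM in high-fat libraries, against 3.30, 9.49 and 8.56 CPM in low-fat libraries. Hmox1 pull-down levels in liver mRNA were 16.5, 18.0 and 20.9 CPM in high-fat libraries, against 6.77, 7.92 and 9.09 CPM in low-fat libraries. All high-fat libraries were above all low-fat ones in both fractions, narrowly so in input. The log2 differences were 0.86 ± 0.27 in input, 0.68 ± 0.24 without the first low-fat input, and 1.07 ± 0.27 in pull-down (SE). Small RNA inputs of liver had 439, 250 and 237 CPM of Hmox1 in high-fat libraries, against 71.2, 142 and 168 CPM in low-fat libraries, again without overlap. The small RNA pull-downs had 668, 259 and 668 CPM of Hmox1 in high-fat libraries, against 147 and 319 CPM in low-fat libraries, which overlapped. The log2 differences there were 1.43 ± 0.41 in input and 1.31 ± 0.46 in pull-down, the second running between 0.83 without the first low-fat library and 2.06 without the third. Hmox1 is also a macrophage gene. Summed macrophage markers were lower on the high-fat diet in liver mRNA input, at 168 to 177 CPM, against 237 to 241 CPM in low-fat libraries. There 3 of 13 tested were called lower (median log2 difference -0.31), against 22.5% of all genes called (median -0.06). In liver mRNA pull-down they overlapped, at 55.6 to 81.1 CPM in high-fat and 68.6 to 88.8 CPM in low-fat libraries (0 of 13 called, against 5.95% of all genes). In small RNA input they were lower, at 298 to 418 CPM in high-fat and 426 to 664 CPM in low-fat libraries (0 of 13 called). In small RNA pull-down they summed to 246 to 342 CPM in high-fat libraries and 219 to 264 CPM in low-fat libraries, with a median log2 difference of 0.43 (0 of 13 called), the same direction as Hmox1, and their part in its value was not tested.

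In VsWAT small RNA input Hmox1 had 51.9, 42.0 and 87.1 CPM in high-fat libraries, against 25.2, 33.6 and 34.9 CPM in low-fat libraries. In VsWAT small RNA pull-down it had 52.2, 75 and 225 CPM in high-fat libraries, against 23.6, 28.1 and 18.2 CPM in low-fat libraries. In VsWAT total RNA it had 20.1, 26.3 and 45.8 CPM in high-fat libraries, against 9.17, 18.7 and 13.3 CPM in low-fat libraries. The diets did not overlap in any of the 3, and the third high-fat library was the highest in each. The log2 differences were 0.92 ± 0.45 in input, 2.25 ± 0.44 in pull-down and 0.96 ± 0.41 in total RNA (SE). Without the third high-fat library the difference was 0.46 in input, 1.44 in pull-down and 0.40 in total RNA. Macrophage markers summed to 720 to 771 CPM in high-fat and 587 to 1012 CPM in low-fat VsWAT small RNA inputs, to 321 to 392 CPM in high-fat and 228 to 640 CPM in low-fat pull-downs, and to 350 to 459 CPM in high-fat and 248 to 913 CPM in low-fat total RNA, and 0 of the 13 tested markers passed the diet test in any of the 3. Acute phase markers were also higher on the high-fat diet without overlap in 2 of these 3, at 932 to 1121 CPM in high-fat and 543 to 801 CPM in low-fat small RNA pull-downs and at 452.2 to 739 CPM in high-fat and 345 to 451.5 CPM in low-fat total RNA, and overlapped in small RNA input, at 416 to 582 CPM in high-fat and 364 to 438.5 CPM in low-fat libraries. Hepatocyte markers had a median log2 difference of 0.31 in small RNA input, 1.56 in pull-down and 1.74 in total RNA, with sums that overlapped between diets. None of these markers passed the diet test, and their part in the Hmox1 values was not tested. In VsWAT as in liver, fewer cells of a type and less RNA per cell cannot be told apart in bulk libraries.

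**Figure D2:**
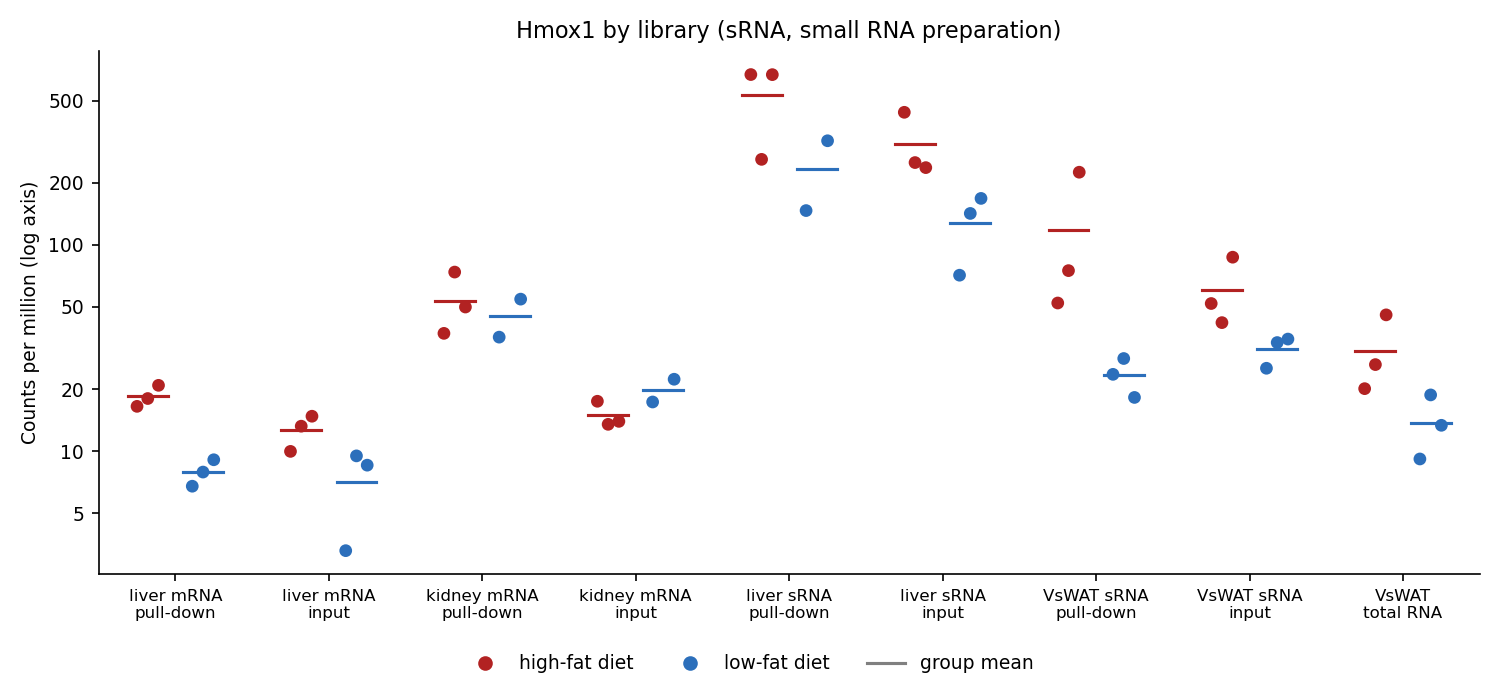
Hmox1 in each library of liver, kidney and VsWAT, in CPM on a log axis, by fraction and diet; points are libraries and bars are group means. High-fat libraries of VsWAT lie above the low-fat ones in all 3 data types, and in kidney the diets overlap.

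The other members varied by diet mostly in liver mRNA input. There the first low-fat library carried part of the difference of Tfrc and Ftl1 and set the direction of Fth1. Slc40a1, the ferroportin gene, had 200, 179 and 190 CPM in high-fat inputs, against 205, 252 and 247 CPM in low-fat inputs, without overlap, a log2 difference of -0.28 ± 0.10 (SE). In pull-down it had 306, 317 and 327 CPM in high-fat libraries, against 305, 312 and 316 CPM in low-fat libraries, which overlapped. The log2 difference was -0.11 ± 0.10 with TMM scaling and 0.03 with total counts, which moved the median of all genes in this comparison to 0.13. Tfrc had 107, 91.0 and 92.7 CPM in high-fat inputs, against 17.8, 78.7 and 81.8 CPM in low-fat inputs. Its log2 difference was 0.78 ± 0.32, and 0.45 ± 0.12 without the first low-fat library. In pull-down, where the diets overlapped, it was -0.03 ± 0.31 with TMM scaling and 0.11 with total counts, so neither Slc40a1 nor Tfrc had a settled direction there.

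Of the ferritin chains, Fth1 had 1354, 1345 and 1325 CPM in high-fat liver mRNA inputs, against 2171, 1201 and 1199 CPM in low-fat inputs. Its log2 difference was -0.22 ± 0.25 with the first low-fat library and 0.34 ± 0.09 without it, so the direction turned on that library. Ftl1 had 538, 299 and 490 CPM in high-fat inputs, against 1800, 912 and 877 CPM in low-fat inputs, with no overlap. Its log2 difference was -1.49 ± 0.38, and -0.84 ± 0.21 without that library. In pull-down the diets overlapped for both, at -0.25 ± 0.25 for Fth1 and 0.33 ± 0.37 for Ftl1. Erythroid markers summed to 1752 CPM in the first low-fat input, 349 to 371 CPM in the other low-fat inputs and 553 to 707 CPM in high-fat inputs, and their part in these values was not tested. Ftl1 shares its sequence with processed copies in the mouse genome, so its counts depend on how such reads were assigned.

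Alas1, which sets the rate of heme synthesis, had 881, 845 and 938 CPM in high-fat liver mRNA inputs, against 1483, 2149 and 2066 CPM in low-fat inputs. The diets did not overlap, and the log2 difference was -1.06 ± 0.10, and -1.06 ± 0.08 without the first low-fat library. Alas1 pull-down levels in liver mRNA were 3505, 3107 and 3258 CPM in high-fat libraries, against 3896, 3398 and 3406 CPM in low-fat libraries, which overlapped, with a log2 difference of -0.25 ± 0.10. Its liver small RNA input levels were 450, 414 and 253 CPM in high-fat libraries, against 217, 427 and 345 CPM in low-fat libraries, at 0.31 ± 0.27, where the diets overlapped. Its liver small RNA pull-down levels were 1759, 1151 and 1438 CPM in high-fat libraries, against 1041 and 1210 CPM in low-fat libraries, which overlapped, at 0.52 ± 0.31. Both small RNA values thus had the sign opposite to that of the mRNA values. The input value was 0.14 without the first low-fat input. Summed hepatocyte markers of liver mRNA input were lower on the high-fat diet, at 62150 to 71100 CPM, against 86240 to 91950 CPM in low-fat libraries. The albumin transcript, 1 of the 8 markers, had 26091 to 31852 CPM in high-fat inputs and 50169 to 54774 CPM in low-fat inputs. The median log2 difference of the 8 was only -0.09, against -0.06 over all genes. Of the 8, 1 was called lower, against 22.5% of all genes called, and their part in these values was not tested. For Slc40a1, Tfrc, Fth1 and Ftl1 the small RNA diet differences lay between -0.48 ± 0.39 (Tfrc) and 0.06 ± 0.24 (Slc40a1) in liver input, and between -0.22 ± 0.27 (Slc40a1) and 0.17 ± 0.30 (Fth1) in liver pull-down. Total counts, which moved the median of all genes to -0.15 in input and -0.13 in pull-down, turned Slc40a1 to -0.05 in input and Tfrc, Fth1 and Ftl1 to between -0.14 and -0.0042 in pull-down.

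Across all genes, the diet test (edgeR quasi-likelihood, Benjamini-Hochberg adjusted p under 0.05) called 22.5% of the 10865 genes tested in liver mRNA input (2446 genes, and 4728 without the first low-fat input), 5.95% in its pull-down, 0.202% in small RNA input and 0.0357% in small RNA pull-down. In liver mRNA input 22 of the 88 other iron and heme genes tested passed, 25%, against the 22.5% of all genes, with 8 higher and 14 lower on the high-fat diet and a median log2 difference of -0.08, against -0.06 over all genes. The 20 tested genes of hepcidin control held 0 higher and 5 lower (25%, against the 22.5% of all genes, of which 964 were higher and 1482 lower). Their median log2 difference was 0.08, so the list as a whole was not lower. Tmprss6, the liver protease that cuts hemojuvelin and thereby lowers hepcidin output, had 204, 180 and 207 CPM in high-fat inputs, against 396, 576 and 540 CPM in low-fat inputs, and fell by 1.32 ± 0.16 on the log2 scale (SE, adjusted p = 0.00016). Hfe2, which encodes hemojuvelin, a BMP co-receptor, fell by 0.82 ± 0.19 (adjusted p = 0.0096). Among iron sensing genes Epas1, the hypoxia factor HIF-2α, fell by 0.53 ± 0.10 (adjusted p = 0.0028), 1 of 5.

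Of the 12 tested genes of heme synthesis, which do not include Alas1, 2 rose and 2 fell. Cpox, the coproporphyrinogen oxidase, had 476, 525 and 437 CPM in high-fat liver mRNA inputs, against 286, 238 and 260 CPM in low-fat inputs, and rose by 0.88 ± 0.15 on the log2 scale (edgeR, adjusted p = 0.0019). Of 13 genes of heme breakdown and transport 2 rose and 3 fell, with Abcg2, an exporter that also carries porphyrins, up by 0.50 ± 0.12 (adjusted p = 0.012) and Hpx, the plasma heme carrier hemopexin, down, at -0.70 ± 0.20 (adjusted p = 0.025), and at -0.33 ± 0.11 without the first low-fat input (adjusted p = 0.016). Of 16 genes of iron-sulfur cluster assembly 2 rose and 1 fell. Of 16 genes of iron uptake, export and storage 1 rose and 2 fell (18.8%, against the 22.5% of all genes). Slc11a2, the ferrous iron transporter DMT1, was up by 0.64 ± 0.19 (adjusted p = 0.029). The mitochondrial iron importers Slc25a37 and Slc25a28, the mitoferrins, named after their values were seen, were at -0.56 ± 0.18 (adjusted p = 0.043) and -0.85 ± 0.21 (adjusted p = 0.011). In the NRF2 response 1 of 6 genes rose, Gclm, a glutathione synthesis subunit, by 0.52 ± 0.12 (adjusted p = 0.0083). The count of 22 was 5 with libraries of close agreement summed, 11 when only the compared groups entered the fit, and 39 without the first low-fat input. Hfe2, Hpx, Slc11a2, Abcg2, Epas1 and both mitoferrins missed the threshold with those libraries summed. Each of the genes named here passed without the first low-fat input. That setting leaves 2 low-fat inputs that differ by little more than counting error, so the 39 and these passes may overstate the evidence. Slc25a37 also missed the threshold with RLE factors, total counts or DESeq2. Among liver mRNA pull-downs 0 of 88 passed, and in liver small RNA 0 of 71 passed in either fraction.

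In kidney, whose diet contrast had no part in the choice of members, no member passed the diet test with all libraries. The test called 0.0% of 15023 genes in kidney input, where 2582 had an unadjusted p under 0.05 and DESeq2 called 528, and 0.0% in kidney pull-down, where 718 had an unadjusted p under 0.05 and DESeq2 called 0. The count in kidney input rested on single libraries, with 2525 genes called without the first high-fat input, the one that stood apart, and 140 without the first low-fat input. Hmox1 had 37.2, 73.8 and 50.0 CPM in high-fat kidney pull-downs, against 35.7 and 54.5 CPM in low-fat pull-downs, and 17.5, 13.5 and 13.9 CPM in high-fat inputs, against 17.3 and 22.3 CPM in low-fat inputs. The diets overlapped in both fractions. The log2 difference was 0.21 ± 0.30 in pull-down (adjusted p = 1) and -0.29 ± 0.30 in input (edgeR, adjusted p = 0.65). Alas1 had 178, 170 and 255 CPM in high-fat kidney inputs, against 187 and 255 CPM in low-fat inputs, at -0.02 ± 0.23 (adjusted p = 0.98). Tfrc had 154, 82.7 and 85.7 CPM in high-fat kidney inputs, against 124 and 105 CPM in low-fat inputs, at 0.01 ± 0.27 (adjusted p = 0.99).

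Fth1 had 4659, 5694 and 5289 CPM in high-fat kidney inputs, against 3597 and 3749 CPM in low-fat inputs. These did not overlap, but the difference of 0.62 ± 0.23 on the log2 scale did not pass (edgeR, adjusted p = 0.21). In kidney pull-down it had 1675, 1179 and 1360 CPM in high-fat libraries, against 2224 and 1615 CPM in low-fat libraries, at -0.49 ± 0.22 (adjusted p = 1). Ftl1 was the most uneven member in kidney, with 153, 725 and 584 CPM in high-fat inputs, against 25.8 and 361 CPM in low-fat inputs, at 1.53 ± 0.80 (adjusted p = 0.35). That difference was 0.65 without the first low-fat input and 4.19 without the second. Slc40a1 had 59.0, 41.8 and 52.3 CPM in high-fat kidney inputs, against 62.9 and 55.7 CPM in low-fat inputs, at -0.11 ± 0.23 (adjusted p = 0.83). In kidney pull-down Alas1, Slc40a1, Tfrc and Ftl1 differed by -0.02 ± 0.23, 0.02 ± 0.23, 0.23 ± 0.27 and -0.49 ± 0.75, each with an adjusted p of 1. An interval of 2 SE around each of these values holds both signs except for Fth1. Of the other iron and heme genes 0 of 85 passed in either kidney fraction, though in input 21 passed without the first high-fat library and 2 without the first low-fat one.

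**Figure D3:**
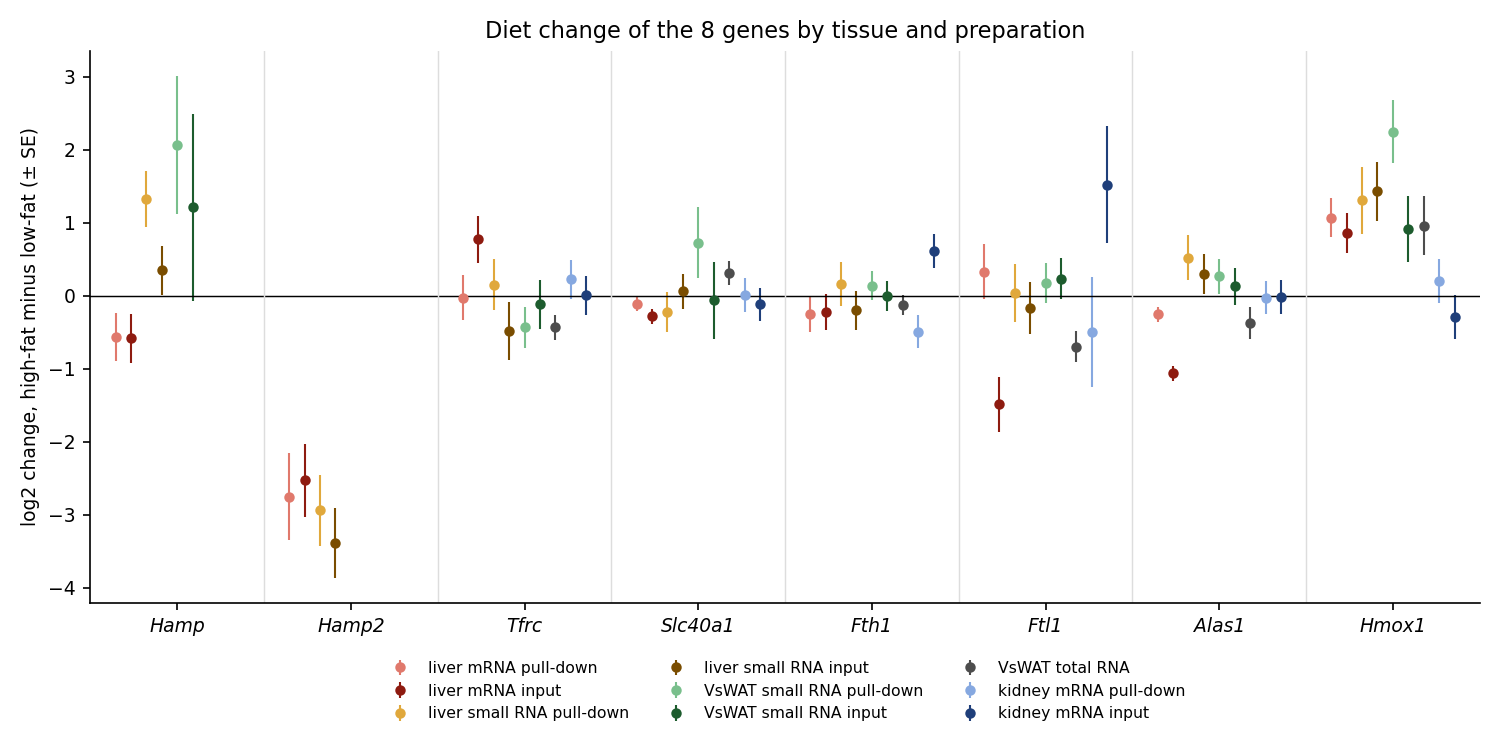
Log2 difference of high-fat minus low-fat for each member in each liver, VsWAT and kidney comparison in which it passed the filter on low counts, with SE bars; the line marks 0. Hamp2 lies furthest below 0 in the liver data, Hmox1 lies above 0 in liver and VsWAT, and the kidney values of Alas1, Slc40a1 and Tfrc lie close to 0.

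Plasma gave little on these genes. Of the plasma genes tested the diet contrast called 0.0% of 3469 in input, where 0 had an unadjusted p under 0.05, and 0.0% in pull-down, where 453 had; DESeq2 called 0 in both, and 0 members were called. Hamp2 had 0 counts in every plasma library. Hamp had 1077 and 0 CPM in high-fat plasma pull-downs, against 242 and 379 CPM in low-fat pull-downs, and 6.11 and 0 CPM in high-fat inputs, against 0 and 1.80 CPM in low-fat inputs. Albumin (Alb), a hepatocyte transcript, had 6280 and 18.1 CPM in the same high-fat pull-downs, against 346 and 1767 CPM in the low-fat ones, so the pull-down without Hamp was also the lowest in Alb. Hmox1 was at 292 and 0 CPM in high-fat plasma pull-downs, against 0 and 0 CPM in low-fat pull-downs, and was not tested.

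In VsWAT the diet test called 0.0794% of 11339 genes in small RNA input, 0.406% in small RNA pull-down and 0.278% of 12248 genes in total RNA. Apart from Hmox1, the members' differences by diet were smaller than their SE in small RNA input, from -0.11 ± 0.34 for Tfrc to 0.24 ± 0.28 for Ftl1 among the 5 non-hepcidin genes. In VsWAT total RNA Ftl1 had 56.1, 42.9 and 41.9 CPM in high-fat libraries, against 63.9, 105 and 39.2 CPM in low-fat libraries, which overlapped, at -0.70 ± 0.21, and at -0.46 without the second low-fat library. Slc40a1 in VsWAT total RNA had 25.6, 24.2 and 19.9 CPM in high-fat libraries, against 17.9, 16.2 and 14.1 CPM in low-fat libraries, without overlap, at 0.31 ± 0.17. It was at 0.18 without the second low-fat library, and at 0.54 with total counts, which moved the median of all genes to 0.20. In VsWAT small RNA pull-down Slc40a1 was at 0.73 ± 0.49, with 0.29 without the second high-fat library and 1.65 without the first low-fat one. Tfrc was at -0.43 ± 0.28 there, and at -0.17 without the third high-fat library. Of the other iron and heme genes 0 of 83 passed in VsWAT small RNA input, and 1 passed in pull-down and in total RNA, both times Hephl1, a copper-dependent ferroxidase homolog, at -3.80 ± 0.77 in pull-down (edgeR, adjusted p = 0.048) and -4.07 ± 0.61 in total RNA (adjusted p = 0.039). Hephl1 lay below the median expression and was named after its values were seen. It did not pass in pull-down with DESeq2-type size factors or with the close libraries summed.

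Hamp reads in VsWAT were uneven between libraries. Hamp had 72.7, 78.7 and 3.83 CPM in high-fat VsWAT small RNA pull-downs, against 32.8, 3.78 and 1.94 CPM in low-fat pull-downs, and 10.7, 19.3 and 0.936 CPM in high-fat inputs, against 6.76, 2.46 and 1.62 CPM in low-fat inputs. Alb had 905, 1097 and 36.8 CPM in the same high-fat pull-downs, against 658, 94.0 and 100 CPM in the low-fat ones, and 642, 894 and 108 CPM in high-fat inputs, against 1063, 143 and 262 CPM in low-fat inputs. In both fractions the 3 libraries with the most Hamp were the 3 with the most Alb, namely high-fat 1, high-fat 2 and low-fat 1. High-fat inputs 1 and 2 differed by little more than counting error (chi-square per gene of 1.44), so they may not be independent. The 8 hepatocyte markers summed to 2088, 2570 and 1355 CPM in high-fat pull-downs, against 2444, 3411 and 782 CPM in low-fat pull-downs, and to 1258, 1738 and 332 CPM in high-fat inputs, against 2072, 756 and 643 CPM in low-fat inputs. In input the same 3 libraries had the highest sums. In pull-down the highest sum was in low-fat 2, whose Hamp level was 3.78 CPM. Alb made up 94.0 CPM of that sum of 3411 CPM, so most of it came from other listed genes. The log2 diet difference of Hamp was 1.21 ± 1.28 in input and 2.07 ± 0.95 in pull-down, and the part of hepatocyte RNA in it was not tested. Leaving out each library gave 0.55 (without high-fat 2) to 2.16 (without low-fat 1) in input and 1.59 (without low-fat 2) to 4.14 (without low-fat 1) in pull-down. Hamp2 had 0 to 3.15 CPM (0 to 7 counts) over the VsWAT small RNA libraries.

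Between pull-down and input, members of different roles went different ways. In liver mRNA the test called 73.8% of all genes in this contrast, so that most genes differed, and the same contrast had a part in choosing the members. Alas1 averaged 3290 ± 201 CPM in high-fat pull-downs and 888 ± 46.8 CPM in high-fat inputs (SD, n = 3 each), and 3567 ± 286 CPM in low-fat pull-downs and 1899 ± 363 CPM in low-fat inputs. Tfrc averaged 251 ± 14.1 CPM in high-fat pull-downs and 96.7 ± 8.53 CPM in high-fat inputs, and 233 ± 26.4 CPM in low-fat pull-downs and 59.4 ± 36.1 CPM in low-fat inputs. Fth1 went the opposite way, with 487 ± 21.4 CPM in high-fat pull-downs and 1341 ± 14.9 CPM in high-fat inputs, and 527 ± 47.9 CPM in low-fat pull-downs and 1524 ± 561 CPM in low-fat inputs. None of the 3 overlapped between fractions. The log2 differences of pull-down minus input, averaged over diets, were 1.15 ± 0.07 for Alas1, 1.45 ± 0.23 for Tfrc and 0.32 ± 0.07 for Slc40a1, and -1.78 ± 0.18 for Fth1, -1.54 ± 0.27 for Ftl1 and -1.52 ± 0.39 for Hamp2 (SE). Hmox1 was near 0 at 0.09 ± 0.19, and at -0.05 ± 0.16 without the first low-fat input. Hamp was at -0.07 ± 0.23, at 0.28 ± 0.07 without the first low-fat input, and at 0.22 with total counts, which moved the median of all genes to 0.27.

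The ferritin heavy chain was lower in pull-down in the other tissues as well. In kidney, where 53.0% of genes were called, Fth1 averaged 1404 ± 251 CPM in high-fat pull-downs and 5214 ± 522 CPM in high-fat inputs (SD, n = 3 each), a log2 difference over both diets of -1.64 ± 0.16 (SE). Hmox1 differed most in the other direction in kidney, at 1.30 ± 0.22, and its 5 pull-downs, at 35.7 to 73.8 CPM, were all above its 5 inputs, at 13.5 to 22.3 CPM. Kidney values of Alas1, Slc40a1 and Tfrc were 0.29 ± 0.16, 0.14 ± 0.16 and 0.16 ± 0.19. Without the second low-fat input Slc40a1 was at -0.05 and Tfrc at -0.04. Ftl1 was at -0.18 ± 0.54, and at 1.08 without the same input, so the direction of all 3 rests on that library. The replicate block also turned Ftl1, to 0.34, and total counts brought it to 0.0067 and the median of all genes to 0.23. In VsWAT small RNA, with 43.9% of genes called, the differences were 1.29 ± 0.18 for Alas1 and 0.50 ± 0.22 for Tfrc, and -1.28 ± 0.15 for Fth1 and -0.99 ± 0.20 for Ftl1. The VsWAT values of Hmox1 (-0.40 ± 0.31) and Slc40a1 (-0.45 ± 0.36) turned to 0.27 and 0.18 when libraries were scaled by total counts, which moved the median of all genes to 0.64.

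For liver small RNA, where 55.4% of genes were called, Alas1 had 1041 to 1759 CPM in the 5 pull-downs and 217 to 450 CPM in the 6 inputs, without overlap, and a log2 difference of 0.75 ± 0.20. Tfrc was at 0.91 ± 0.26 there. Fth1, Ftl1 and Hamp2 were at -0.98 ± 0.21, -1.09 ± 0.27 and -0.86 ± 0.34 in liver small RNA with TMM scaling, and at 0.15, 0.03 and 0.30 when scaled by total counts, which moved the median of all genes to 1.23. Relative to that median they were lower under both scalings. Macrophage markers moved with this contrast: 13 of 13 tested were called lower in pull-down in liver mRNA (median -1.73) and 13 of 13 in liver small RNA (-1.91), as were 7 of 9 in kidney and 11 of 13 in VsWAT (-1.67). Erythroid markers called lower were 5 of 5 in liver mRNA (median -2.63), 5 of 6 in kidney (-1.71), 3 of 4 in liver small RNA (-1.82) and 4 of 5 in VsWAT (-2.06). Of all genes, 73.8%, 53.0%, 55.4% and 43.9% were called in either direction, in the same order of sets. Summed proximal tubule markers were at 17010 to 34030 CPM in kidney pull-downs and 65910 to 81770 CPM in kidney inputs (3 of 8 called lower, median only -0.28). Summed hepatocyte markers were at 41040 to 45700 CPM in liver mRNA pull-downs and 62150 to 91950 CPM in inputs (7 of 8, median -1.07). Adipocyte markers in VsWAT small RNA went both ways, with 5 called higher and 3 lower of 8 (median 0.70). They summed to 15250 to 22570 CPM in pull-downs and 6954 to 9059 CPM in inputs. The part of all these markers in the members' values was not tested.

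**Figure D4:**
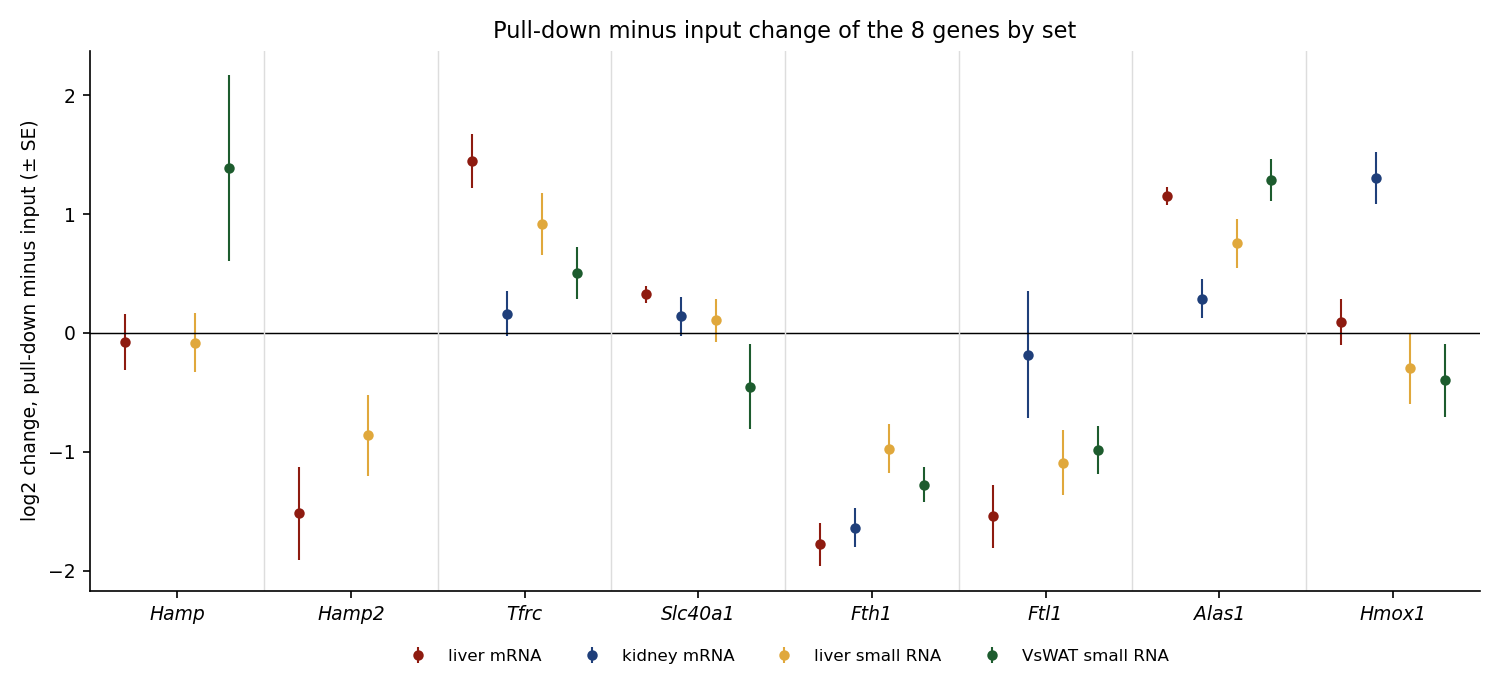
Log2 difference of pull-down minus input for each member in liver mRNA, kidney mRNA, liver small RNA and VsWAT small RNA, averaged over diets, with SE bars and TMM scaling; the line marks 0. Fth1 lies below 0 and Alas1 above 0 in each, though in liver small RNA Fth1, Ftl1 and Hamp2 lie above 0 with total-count scaling.

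The other iron and heme genes were lower in pull-down more often than higher in the mRNA sets. In liver mRNA 74 of 88 were called (84.1%, against 73.8% of all genes), 26 higher and 48 lower, with a median of -0.52 against 0.02 over all genes. In kidney 61 of 85 were called (71.8%, against 53.0%), 17 higher and 44 lower. Of the 12 genes of heme synthesis other than Alas1, 1 was higher and 8 were lower in liver mRNA (75% called, against 73.8% of all genes), and 0 were higher and 6 lower in kidney (50%, against 53.0%). Heme breakdown and transport held 2 higher and 9 lower of 13 in liver mRNA and 3 higher and 7 lower of 12 in kidney. Iron uptake, export and storage held 5 higher and 8 lower of 16 in liver mRNA and 4 higher and 9 lower of 17 in kidney. Fech, the ferrochelatase that inserts iron into the ring, was at -1.21 ± 0.08 in liver and -1.10 ± 0.15 in kidney. Genes of iron-sulfur cluster assembly were lower in 12 of 16 in each tissue, among them the cysteine desulfurase Nfs1 (-1.33 ± 0.13 in liver, -1.42 ± 0.15 in kidney). Hepcidin control genes were split, with 11 higher and 6 lower of 20 in liver mRNA and 8 higher and 5 lower of 17 in kidney. The BMP receptor gene Acvr1 (1.58 ± 0.10) and the interleukin-6 receptor gene Il6ra (1.57 ± 0.11) were higher and Tmprss6 (-2.21 ± 0.12) and the endothelial ligand gene Bmp2 (-2.09 ± 0.25) were lower in liver mRNA pull-down. Bach1, a heme-binding repressor of Hmox1, was higher in pull-down in liver mRNA (1.57 ± 0.19) and in kidney (1.80 ± 0.24). Transferrin (Trf) was lower in liver mRNA, at -2.54 ± 0.33.

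In the small RNA sets the shares were closer to the background, with 38 of 71 called in liver (53.5%, against 55.4% of all genes; 12 higher, 26 lower) and 41 of 83 in VsWAT (49.4%, against 43.9%; 20 higher, 21 lower). In liver small RNA pull-down the iron-responsive regulator gene Ireb2 (1.06 ± 0.18) and Cpox (0.84 ± 0.17) were higher, and Tmprss6 (-1.96 ± 0.22), Bmp2 (-2.06 ± 0.27) and Lcn2, a siderophore-binding protein gene (-2.26 ± 0.51), were lower. In VsWAT pull-down the mitochondrial ferredoxin gene Fdx1 (1.54 ± 0.25) and Aco1, the iron-responsive protein IRP1 (1.13 ± 0.16), were higher. Trf (-1.95 ± 0.36), Lrp1 (-1.48 ± 0.21), which takes up heme-hemopexin, and the macrophage hemoglobin receptor Cd163 (-1.67 ± 0.21) were lower there.

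Between tissues, the members could be tested, since no tissue contrast entered their choice. Tissues were prepared as separate sets, so that tissue and set cannot be told apart. In mRNA input of liver minus kidney the test called 62.9% of all genes and 4 of the 6 members other than the hepcidin genes, namely Alas1, Slc40a1, Ftl1 and Fth1. Hamp and Hamp2 passed the filter on low counts only through liver and are given as levels and counts. Hamp had 692 to 1696 CPM in the 6 liver inputs and 0 to 0.215 CPM in the 5 kidney inputs, with 19741 counts over the liver libraries and 4 over the kidney libraries, a pooled ratio of 14392 (95% counting interval 5621 to 52821). Of those 4 counts 3 were in the second low-fat kidney input, without which the ratio was 45761 (8213 to 1807500). Hamp2 had 398 counts in liver and 0 in kidney, at least 387-fold higher in liver against a floor of 3 counts over the kidney group. Alas1 averaged 1394 ± 600 CPM in liver inputs (SD, n = 6) and 209 ± 42.5 CPM in kidney inputs (SD, n = 5), with a log2 difference of 3.05 ± 0.15 (edgeR, adjusted p = 3.2e-14). Slc40a1 was higher in liver by 2.36 ± 0.13 (adjusted p = 2.7e-13) and Ftl1 by 1.74 ± 0.47 (adjusted p = 0.003). Ftl1 was at 1.13 without the first low-fat kidney input and at 3.1 without the second, and passed in both. Fth1 was lower in liver, at -1.16 ± 0.18 (adjusted p = 6.9e-06), with 1199 to 2171 CPM in liver inputs and 3597 to 5694 CPM in kidney inputs.

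Tfrc did not pass between liver and kidney (-0.15 ± 0.23, edgeR, adjusted p = 0.58), and Hmox1 was at -0.42 ± 0.21 (adjusted p = 0.086). Hmox1 passed without the first low-fat liver input, at -0.48 (adjusted p = 0.038), with the replicate number as a block, at -0.53 (adjusted p = 0.033), and with total counts, at -0.84, which moved the median of all genes to -0.48. Of the other iron and heme genes 71 of 90 passed (78.9%, against 62.9% of all genes), 45 higher and 26 lower in liver. Heme synthesis held 8 higher and 0 lower of 12. Among regulators of hepcidin, 11 of 20 were higher and 5 lower in liver. Tmprss6, Hfe2 and Tfr2 passed the filter on low counts only through liver, so their calls add nothing beyond their counts. The 11 and the 71 are thus not free of such genes. Hfe2 had 0 counts over the kidney inputs and was at least 648-fold higher in liver. Tmprss6 had 0 counts over the 5 kidney inputs and was at least 7907-fold higher in liver. Tfr2, the iron-sensing second transferrin receptor, had 2 counts in kidney, a pooled ratio of 9698 (2685 to 80076), and 15453 or 15418 without either kidney library that held a count. Hpx had a pooled ratio of 9835 (6223 to 16595) and Cp, the plasma ferroxidase ceruloplasmin, a log2 difference of 5.87 ± 0.21. Steap2, a metalloreductase gene, was lower in liver by -4.69 ± 0.24 (adjusted p = 1.2e-13), and so were Id1, a BMP target, at -2.28 ± 0.19 and Blvra, biliverdin reductase, at -2.01 ± 0.23.

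**Figure D5:**
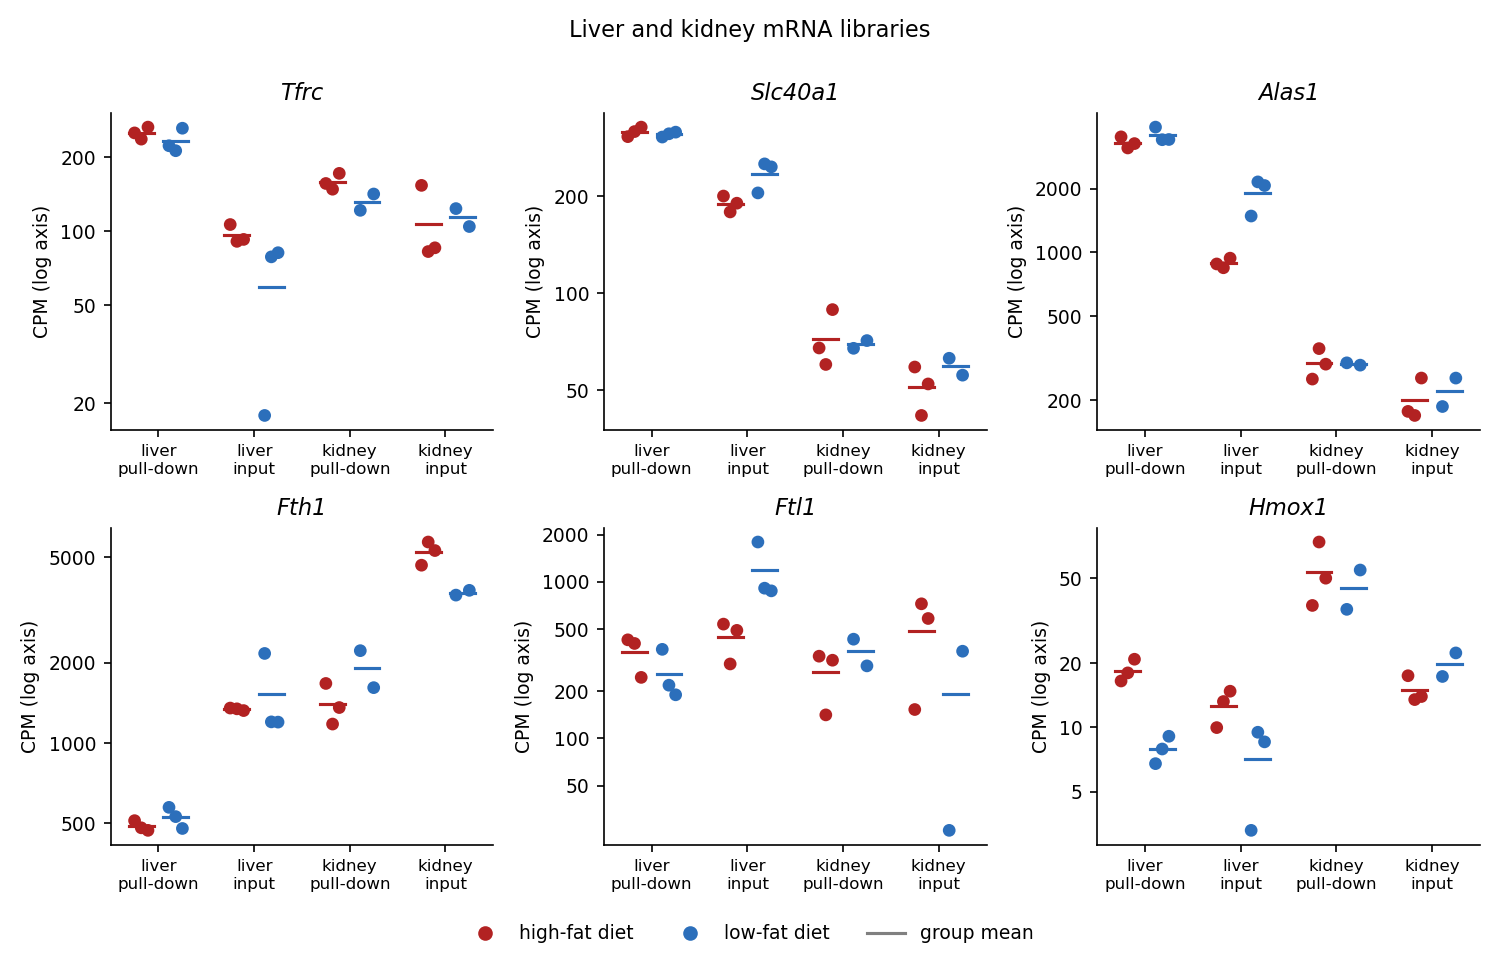
Levels of the 6 members other than the hepcidin genes in the liver and kidney mRNA pull-downs and inputs, in CPM on a log axis, by diet; points are libraries and lines are group means. In input Alas1 and Slc40a1 lie higher in liver, without overlap, Fth1 lies lower in liver, and Tfrc is close between the tissues.

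In small RNA input of liver minus VsWAT the test called 53.3% of genes and 6 of the 7 members other than Hamp2, which passed the filter on low counts only through liver. Hamp2 had 1152 counts over the 6 liver libraries and 9 over the 6 VsWAT libraries, a pooled ratio of 116 (95% counting interval 61.1 to 254). Of the 9 VsWAT counts 7 were in low-fat 1, without which the ratio was 378 (105 to 3120). Hamp had a ratio of 64.9 (49.6 to 86.6). On the log2 scale Slc40a1 was higher in liver by 4.15 ± 0.32 (edgeR, adjusted p = 7.8e-11), Alas1 by 3.23 ± 0.22 (adjusted p = 1.4e-11), Hmox1 by 3.03 ± 0.34 (adjusted p = 5e-08) and Ftl1 by 2.18 ± 0.27 (adjusted p = 2.4e-07). Tfrc was higher by 1.07 ± 0.27 (adjusted p = 0.0017), a call lost with total-count scaling (0.19, adjusted p = 0.57), which moved the median of all genes to -0.95. Fth1 did not pass (0.42 ± 0.19, adjusted p = 0.075, and -0.44 with total counts). Of the other iron and heme genes 52 of 88 passed (59.1%, against 53.3%), 37 higher and 15 lower in liver. Scara5, a ferritin receptor gene, was lower in liver by -9.34 ± 0.77 and Heph, the ferroxidase hephaestin, by -6.01 ± 0.49, while Hpx was higher by 6.68 ± 0.62 and Timd2, a receptor of heavy-chain ferritin in the mouse, by 6.32 ± 0.52. Their sizes depended on single libraries. Counts of these genes in the lower tissue are not given here, so the sizes are fitted values and not measured folds. Whether they, or others of the 52, passed the filter on low counts through 1 tissue only was not checked. Leaving out each library gave -10.6 to -9.23 for Scara5, -7.68 to -5.64 for Heph, 6.43 to 7.27 for Hpx and 6.05 to 8.01 for Timd2. Compared within 1 kind of library, Hamp2 in liver small RNA input was also at least 96.0-fold above plasma input, where it had 0 counts, and at least 60.1-fold without the second high-fat plasma input.

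The order of levels over tissues thus differed by member. Over mRNA and small RNA inputs, Hamp and Hamp2 were high in liver alone among the tissues measured. Hmox1 in small RNA input was highest in liver, at 71.2 to 439 CPM, with VsWAT below at 25.2 to 87.1 CPM, ranges that overlap because of the low-fat liver and high-fat VsWAT libraries, and plasma lowest at 1.99 to 5.40 CPM (1 to 4 counts). Tfrc in small RNA input was highest in plasma by its mean, at 19.8 to 36.7 CPM (11 to 18 counts, mean 28.0 CPM), followed by 12.5 to 29.9 CPM in liver (mean 17.5 CPM) and 9.36 to 20.4 CPM in VsWAT (mean 15.5 CPM), and each of these neighbours overlapped.

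Patterns most like a member were found by Pearson correlation of mean log2(CPM + 1) over the 22 groups among 15952 genes, as a description. The groups share libraries of the same set and differ in depth and RNA type. Hamp was most like Rgs16 (0.98), Uox (0.98) and Fgb (0.98), the last a fibrinogen chain of hepatocytes. Hamp2 was most like Treml4 (0.93), Stab2 (0.93) and Cyp2c38 (0.93), and its correlation with Hamp was 0.74. Hmox1 was most like Zbtb21 (0.90), Snhg15 (0.88) and Irs2 (0.86). Alas1 was most like Parp16 (0.97) and Fmo5 (0.95).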

How the data were processed

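The deposited files hold read counts per feature for 59 libraries in 22 groups, as whole numbers with no normalization by the authors. Per the labels' protocols, tissue RNA was taken with NucleoZOL after flash freezing, plasma was spin-filtered and extracted with Tri reagent BD, and every library came from the CATS small RNA kit. Per the submitters' processing notes the tools were STAR and HTSeq with mm10; no version, annotation or strand setting is stated there (not given in the sources used here). The low-fat liver small RNA pull-down of replicate 2 was not analysed here. The 55273 features were 54838 Ensembl genes and 435 tRNA genes, and 54723 had a symbol.

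Each set was fitted with edgeR 4.0.16 (R 4.3.3): TMM scaling, a filterByExpr minimum of 10 counts and of 15 in total, a coefficient for every group, and quasi-likelihood F tests with Benjamini-Hochberg adjustment over all tested genes and a threshold of 0.05. SE is the log2 difference divided by the square root of F. The fit was tested on simulated data. Beside the 8 members, 96 other iron and heme genes in 7 lists were counted. The members and lists were chosen with earlier results of these data known. Of the list genes, those named passed the test with at least median expression and were among the 3 largest changes each way or led their list by adjusted p. Some genes that these rules name are not reported here. Both ends of counting intervals use a 95% level, and a floor is 3 counts over the group.

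Alternatives were RLE or total-count scaling, no filter or a minimum of 10 CPM, only the compared groups in the fit, a replicate block, summing of close libraries (every close pair, an alternative added after seeing the data) or of both hepcidin genes (without the first low-fat liver mRNA input also chosen after seeing the data), DESeq2 1.42.0, and leaving out each library (for pooled ratios also chosen after seeing the data). Close libraries (variance under 1.5 times sampling) were otherwise kept separate. The replicate numbers, shared across groups in the titles, went with correlated deviations over 0.1 in all 3 pairs for liver mRNA pull-down across diets (0.186 to 0.218) and for VsWAT small RNA pull-down and input on the low-fat diet (0.307 to 0.38), and not in the other sets with 3 pairs.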

Additional observations from a re-analysis of the deposited data

How the results depend on the processing

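Of the counts recomputed under each alternative, 282 were equal or within 1.5 times the main count and 35 moved further. Of the values for single genes, 2964 were labelled the same, 34 moved, 30 turned sign, 16 passed the threshold anew and 45 no longer passed. For list genes, and for members in tested contrasts, the same meant an unchanged sign and call. For members in the other contrasts it meant a change under the SD between libraries. A turned sign was labelled there only where the main value passed, so the 30 leave out some sign turns given above. Where no cause follows from fewer genes or libraries, the cause was not tested. Counts of other iron and heme genes called by diet moved as follows. In liver mRNA input the 22 became 11 with only the compared groups and 5 with every close pair summed, and 9 (without high-fat 1) to 39 (without low-fat 1) when each library was left out, with 10 without high-fat 3, 13 without high-fat 2 and 14 without low-fat 2 or 3. In liver mRNA pull-down the 0 became 3 with total counts, 1 with no filter and 7 with only the compared groups. In kidney input the 0 became 4 with no filter, 3 with DESeq2, and 0 to 21 when each library was left out (21 without high-fat 1, 2 without low-fat 1), and with no filter 1 member was called, Ftl1 at 1.55. In liver small RNA the 0 became 2 in input and 1 in pull-down with no filter, and 1 in input with DESeq2. In VsWAT small RNA pull-down the 1 became 3 with no filter and 0 with RLE factors, the 10 CPM minimum, only the compared groups or every close pair summed, and 0 to 1 when each library was left out. In VsWAT small RNA input the 0 became 2 with no filter and 1 with the replicate block. In VsWAT total RNA the 1 became 6 with no filter, 0 with the 10 CPM minimum and 2 with DESeq2, and 0 to 1 when each library was left out.

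With the replicate block, 19, 0 and 73 other genes were called in liver mRNA for input diet, pull-down diet and pull-down minus input, 67 between liver and kidney, and 52 between liver and VsWAT. The block turned Slc40a1 in kidney pull-down to -0.088. Signs near 0 in kidney also turned, for Tfrc in input with RLE factors (-0.014), total counts (-0.088), no filter (-0.0033), the 10 CPM minimum (-0.0078) and DESeq2 (-0.013), and for Alas1 in pull-down with RLE factors (0.0085), total counts (0.014), only the compared groups (0.0012) and DESeq2 (0.0068). Leaving out each library gave -0.34 to 0.24 for Tfrc, -0.22 to 0.081 for Alas1 and -0.35 to 0.080 for Slc40a1 in kidney input, -0.17 to 0.095 for Alas1, -0.15 to 0.12 for Slc40a1 and -0.11 to 0.56 for Hmox1 in kidney pull-down, and -0.46 to 0.031 for Tfrc between liver and kidney. Total counts turned Hamp2 (0.30), Fth1 (0.15), Ftl1 (0.031) and Nfs1 (0.52) in liver small RNA pull-down minus input, and Fth1 (-0.44) and Aco1 (-0.03) between liver and VsWAT. Hamp2 had 5, 6 and 14 counts in high-fat liver mRNA pull-downs, where counting limits the precision (a share of 0.124% with a 95% interval of 0.0531% to 0.291% in high-fat 1).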
